A study of Mus musculus with 9 samples.

Results

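Solute carriers are the membrane proteins that move nutrients, ions, metals and metabolites across the cell surface and across the membranes of organelles, and their messenger RNA was measured here in mouse bone marrow-derived macrophages. The set comprised every row of the count table whose symbol begins with Slc and a digit and whose mean reached 5 CPM, counts scaled to a common library total, in at least 1 of the 3 groups. Of 379 symbols with that prefix, 167 met the rule, 156 of them in all 3 groups and 11 in only 1 or 2 groups. The genes were thus chosen by their level, and that they were expressed is not a finding. Just inside the limit, the highest group means were 5.27 CPM for Slc24a3, 5.72 CPM for Slc9a5 and 5.80 CPM for Slc12a2. Just outside it stood Slc25a14 at 4.93 CPM, Slc25a35 at 4.88 CPM and Slc29a2 at 4.67 CPM. Among the 167, Slc4a1ap, Slc7a6os and Slc9a3r1 carry the prefix but encode no carrier, which leaves 164 carriers. All 167 were tested for differences, and of the 212 symbols below the limit 64 were tested, 69 had counts but too few for a test and 79 had no count.

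The study sequenced messenger RNA from 3 groups with 3 libraries each. In the control group the macrophages received no treatment that the labels name, and neither the length of their culture nor its medium is given. In the group called CM here they spent 48 h in medium conditioned by K7M2 cells, a mouse osteosarcoma line. In the group called CM plus DTM they spent 48 h in the same kind of medium with DTM added, an agent that the labels do not describe further. No genetic change is named for any group, and no group received DTM without conditioned medium. No label says whether libraries of 1 group stem from separate animals or cultures. The p-values therefore speak of differences among the sequenced libraries, part of which can be technical.

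Macrophages take up dead cells, red cells and microbes, and carriers in the lysosome and phagosome return the amino acids, nucleosides, heme iron and metals of that cargo to the cytosol. Other carriers at the surface take in glucose, cystine, arginine and glutamine or release lactate and iron, and those of the inner mitochondrial membrane exchange adenine nucleotides, phosphate and the acids of the citric acid cycle. Many work as complexes, such as the amino acid exchangers of the Slc7 family that pair with the CD98 heavy chain encoded by Slc3a2.

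Each library held 43084296 to 50407973 counts, and the 167 genes took up 1.06% to 1.40% of them. The 9 macrophage markers examined, among them Adgre1 and Csf1r, were all expressed, with a summed level of 25645 to 45598 CPM. Lyz2 alone made up 20472 to 38698 CPM of this sum. Csf1r and Adgre1 were lower in CM than in control, and Mertk, Fcgr1, Itgam, Cd14 and Ptprc higher. Itgam was at 222 to 317 CPM in control, 607 to 1252 CPM in CM and 86.0 to 347 CPM in CM plus DTM. Ptprc was at 3.79 CPM in CM plus DTM 1 and at 40.0 to 151 CPM in the other 8 libraries. Markers of T, B, NK, erythroid and dendritic cells summed to at most 5.39 CPM for each of these cell types. The first library of CM and that of CM plus DTM stood apart from their groups. In CM 1 the neutrophil granule genes Ltf and Ngp were at 0, against 27.7 to 96.2 CPM and 83.0 to 312 CPM in the other 8 libraries, and the summed level of 11 mesenchymal markers was 135 CPM against 521 to 838 CPM elsewhere. The 12 neutrophil markers summed to 259 to 758 CPM in control, 357 to 1042 CPM in CM and 498 to 1358 CPM in CM plus DTM. Mmp8, neutrophil collagenase, made up 27.1 to 56.8 CPM of this in control, 355 to 780.1 CPM in CM and 142 to 221 CPM in CM plus DTM. The other 11 summed to 731, 320.0 and 202 CPM in control, 1.92, 262 and 287 CPM in CM and 1137, 508 and 356 CPM in CM plus DTM, so they were not higher in CM. Osteoclast markers summed to 28.3 to 41.0 CPM in control, 58.2 to 96.0 CPM in CM and 52.8 to 75.5 CPM in CM plus DTM. Acp5 and Ctsk, both higher in the 6 libraries with conditioned medium than in the controls, made up most of that sum, while Calcr was at 0 in each library. Mcpt8, a basophil protease, was at 1.32, 2.22 and 1.47 CPM in control, 2.13, 29.1 and 31.1 CPM in CM and 8.52, 5.13 and 6.68 CPM in CM plus DTM, with Cpa3 near 0 in each library. The part of these other cells in the results below was not tested, and in bulk RNA fewer cells of a type and less RNA per cell cannot be told apart.

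After 48 h in K7M2 conditioned medium, the lysosomal carriers Slc15a3 and Slc36a1, the copper carrier Slc31a2, the zinc carrier Slc39a7 and the amino acid carrier Slc38a6 rose. The urate carrier Slc2a9, the sodium-proton exchanger Slc9a9, the zinc and iron importer Slc39a14, the large neutral amino acid carrier Slc43a2 and the choline carrier Slc44a1 fell. Of the 167 genes, 10 passed an adjusted p of 0.05 in CM against control, a share of 5.99% beside 5.61% of the 15429 genes tested and 6.87% of the 10398 genes at 5 CPM or more. By direction, 5 were higher, beside 623 of all genes (4.04%), and 5 lower, beside 242 (1.57%). The called carriers were thus split evenly, whereas most called genes were higher, a contrast that was not tested and that rested on the scaling. With scaling by total counts, 2 carriers were higher and 9 lower, beside 415 and 464 of all genes. The share called in both directions together lay near the background, so the number of solute carriers called does not set them apart from other genes. At an unadjusted p under 0.05 the shares were 23.4% of the 167 and 21.4% of all genes. For 54 of the 167, or 32.3%, groups were without overlap, beside 36.7% of all genes. Among genes at 5 CPM or more these shares were 24.4% and 41.8%. The median log2 fold change was 0.00 over the 167 and -0.01 over all genes tested. Here and below, adjusted p-values are those of the quasi-likelihood test in edgeR, with the Benjamini-Hochberg method applied over all genes tested.

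**Figure D1:**
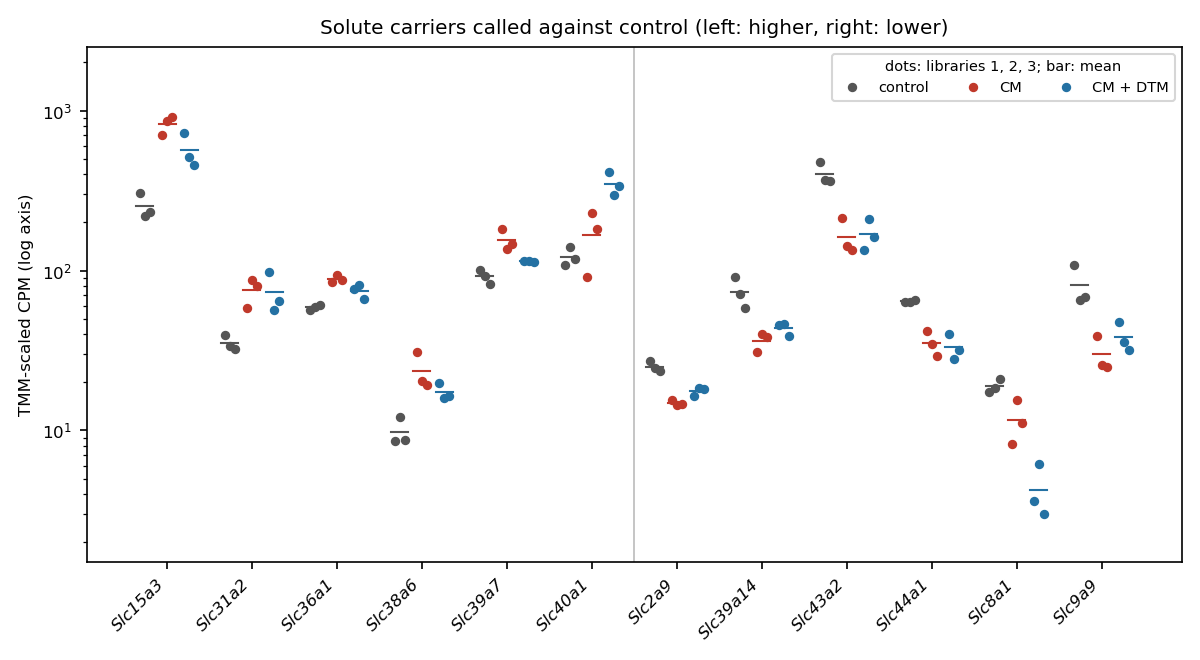
Levels of the 12 solute carriers called in at least 1 comparison. Each point is 1 library (TMM-scaled CPM, log axis) in control, CM or CM plus DTM, and the line marks the mean of 3 libraries. Slc15a3 lies between 219 and 307 CPM in control and at 454 CPM or more in the other 6 libraries, while Slc43a2 lies at 365 CPM or more in control and at or below 213 CPM in those 6.

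Adding DTM to the conditioned medium gave no called solute carrier. edgeR's test called 0 of the 167 and 0% of all genes in CM plus DTM against CM, whereas 34 of the 167 (20.4%) and 28.3% of all genes had an unadjusted p under 0.05, and limma-voom also called 0. Of the 34, 12 were higher and 22 lower, beside 2211 (14.3%) and 2161 (14%) of all genes. The share of the 167 that was lower lay near that of all genes, and the share that was higher lay below it. Of the 22 lower, 3 had entered the set through only some of the groups. This split was not tested. Groups did not overlap for 51, or 30.5%, beside 34.4% of all genes. Among genes at 5 CPM or more, 32.5% had an unadjusted p under 0.05 and 38.8% had groups without overlap. DESeq2 called 17 of the 167 and 2828 genes in all, so this comparison depends on the tool. Against control, CM plus DTM gave 5 called genes, 2 higher and 3 lower, or 2.99% of the 167 beside 2.45% of all genes and 3.2% of those at 5 CPM or more. By direction, 232 of all genes (1.5%) were higher and 146 (0.946%) lower. An unadjusted p under 0.05 was found for 31 of the 167, or 18.6%, beside 24.4% of all genes. Groups did not overlap for 52, or 31.1%, beside 34.5%. Among genes at 5 CPM or more these shares were 28.4% and 38.7%. Of the 5 called genes, those higher were Slc15a3 and Slc40a1, and those lower were Slc8a1, Slc43a2 and Slc44a1. Both comparisons with control share the control libraries, so a call in one gives no independent support to the other.

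Most of these calls were lost in at least 1 of the fits that left out a library. In CM against control the count ran from 1 to 22 as each library was left out in turn. Leaving out any 1 control library gave 1 to 3, beside 256 to 317 of all genes. Dropping CM 2 or CM 3 gave 2, beside 353 and 413. Dropping CM 1 or CM plus DTM 2 gave 10 each, beside 830 and 759. Of these, 8 and 10 were also called with all libraries. Dropping CM plus DTM 3 gave 6 beside 610, while dropping CM plus DTM 1 gave 22 beside 1884. The high of 22 thus came from the fit with the most calls over all genes. Without both CM 1 and CM plus DTM 1 the count was 31, 20 higher and 11 lower, or 18.6% beside 16.0% of all genes. Of the 31, Slc6a12, Slc7a11, Slc22a15, Slc25a43 and Slc45a3 had entered the set through only some of the groups. In CM plus DTM against control it was 0 without any 1 control library or CM plus DTM 3, 1 without CM 2 or CM 3, 2 without CM plus DTM 1, 10 without CM 1, 15 without CM plus DTM 2, beside 1766 of all genes, and 16 without both first libraries, or 9.58% beside 8.40% of all genes. In CM plus DTM against CM it was 6 without CM plus DTM 2, beside 1876 of all genes, 4 without both first libraries, or 2.40% beside 4.97% of all genes, and 0 in the other 8 fits that left out 1 library. Those 4 were Slc25a10, which was higher, and Slc8a1, Slc15a3 and Slc45a4, which were lower. Scaling by total counts, which moved the median log2 fold change of all genes to -0.21 for CM and -0.24 for CM plus DTM over control, ended the calls of Slc36a1, Slc38a6 and Slc39a7 in CM and of Slc40a1 with DTM. With no filter on low counts, Slc2a9, Slc36a1 and Slc44a1 were not called in CM, nor Slc40a1 with DTM. A fit of only the groups compared ended the calls of Slc15a3, Slc43a2 and Slc44a1 in CM plus DTM against control.

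**Figure D2:**
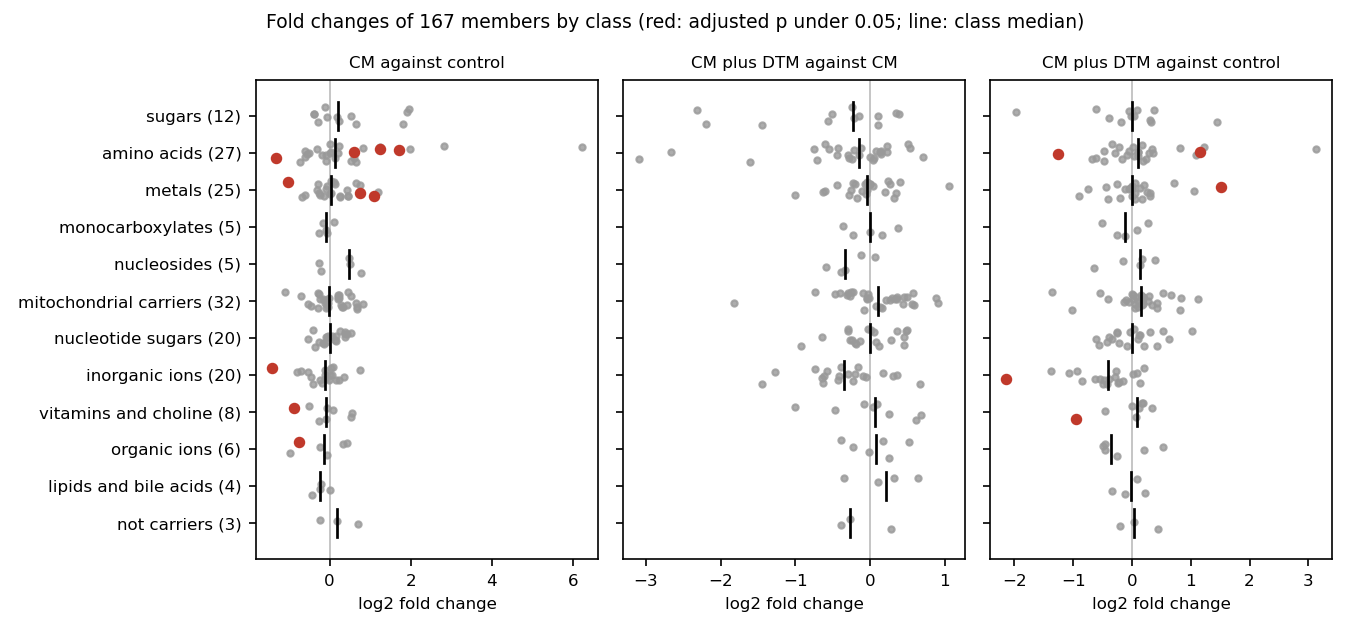
Log2 fold change of each of the 167 genes by what the carrier moves, in the 3 comparisons. Each point is 1 gene, red points passed an adjusted p of 0.05, black lines are class medians and the number of genes in a class stands beside its name. The called genes lie in the amino acid, metal, inorganic ion, vitamin and choline, and organic ion classes.

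The start regions of 4 called genes are shown as examples of each direction in conditioned medium, Slc31a2 and Slc36a1 of those that rose and Slc43a2 and Slc44a1 of those that fell, and their matches do not stand for the called genes as a whole. Each runs 300 bases, from 250 before to 50 after the annotated start, 5′ to 3′ on the gene's strand, from RefSeq on build GRCm38.p6. RefSeq's table held a region for 128 of the 167 genes and for 9 of the 12 called. Capitals mark matches to motifs searched on both strands.
Slc31a2, chr4:62286179-62286478, plus strand: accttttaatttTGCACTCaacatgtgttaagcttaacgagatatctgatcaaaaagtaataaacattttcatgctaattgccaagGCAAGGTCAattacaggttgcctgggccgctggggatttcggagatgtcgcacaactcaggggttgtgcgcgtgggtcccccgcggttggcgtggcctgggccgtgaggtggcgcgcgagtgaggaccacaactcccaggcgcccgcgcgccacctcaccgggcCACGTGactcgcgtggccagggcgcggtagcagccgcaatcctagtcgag
Slc36a1, chr11:55204090-55204389, plus strand: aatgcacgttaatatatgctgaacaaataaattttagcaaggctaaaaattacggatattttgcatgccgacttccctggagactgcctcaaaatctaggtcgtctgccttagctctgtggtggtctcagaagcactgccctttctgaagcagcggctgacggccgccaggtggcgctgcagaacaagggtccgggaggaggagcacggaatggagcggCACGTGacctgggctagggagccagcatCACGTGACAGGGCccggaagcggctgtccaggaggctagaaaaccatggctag
Slc43a2, chr11:75531444-75531743, plus strand: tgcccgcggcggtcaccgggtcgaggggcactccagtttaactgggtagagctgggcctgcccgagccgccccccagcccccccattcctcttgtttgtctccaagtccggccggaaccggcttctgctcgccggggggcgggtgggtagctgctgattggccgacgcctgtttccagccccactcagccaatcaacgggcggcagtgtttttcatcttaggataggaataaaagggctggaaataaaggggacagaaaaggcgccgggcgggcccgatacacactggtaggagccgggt
Slc44a1, chr4:53440163-53440462, plus strand: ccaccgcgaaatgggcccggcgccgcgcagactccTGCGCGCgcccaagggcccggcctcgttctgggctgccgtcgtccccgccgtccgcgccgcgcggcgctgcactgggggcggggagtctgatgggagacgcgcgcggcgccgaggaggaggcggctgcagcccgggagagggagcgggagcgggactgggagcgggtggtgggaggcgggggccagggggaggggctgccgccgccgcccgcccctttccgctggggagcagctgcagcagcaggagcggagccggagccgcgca

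In the Slc31a2 region the capitals are, from the 5′ end, the metal response element TGCACNC or TGCGCNC, the antioxidant response element TGACNNNGC read on the opposite strand, and the E-box CACGTG. Slc36a1 had 2 E-boxes, the second of which overlaps an antioxidant response element. Slc44a1 had 1 metal response element and Slc43a2 had no match. Of the other 5 called genes with a region, Slc9a9 had 1 composite ATF4 element, and Slc2a9, Slc8a1, Slc38a6 and Slc39a7 had no match. The E-box, the site of TFEB, Myc and related factors, was in 7.15% of all 32851 start regions and 13.6% of the 176 of these genes. The antioxidant response element was in 12.4% and 19.9%, and the metal response element in 25.7% and 36.4%. Also searched were the composite ATF4 element TGATGNAA (3.97% and 3.41%), the interferon-stimulated element, GAAA and GAAA spaced by 2 bases (3.44% and 1.70%), the NF-kB motif, GGGAA and CC spaced by 3 bases (5.78% and 6.25%), and the PU.1 motif GAGGAAGT (3.20% and 2.27%). A match describes letters and not a bound site, and base composition was not matched between the regions.

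Per kilobase of exon, and averaged over the 9 libraries, the inner membrane ADP/ATP exchanger Slc25a5 was highest at 357 CPM per kilobase. Next came Slc48a1, which brings heme out of the phagolysosome, at 242 CPM per kilobase, and Slc11a1, the phagosomal metal transporter also known as NRAMP1, at 138 CPM per kilobase. Slc3a2, the CD98 heavy chain, followed at 136 CPM per kilobase, then its partner Slc7a8 at 116 CPM per kilobase and Slc15a3 at 99.7 CPM per kilobase. The place of Slc15a3 rests on the treated libraries, since it was at 46.0 CPM per kilobase in control, 13 in that group's order, and at 150.5 and 103 CPM per kilobase in CM and CM plus DTM. Slc25a5 and Slc48a1 were first and second in each group. Slc25a5 has near-identical processed copies in the genome, and how reads shared with them were counted is not given in the sources used here. The row Slc25a5-ps held at most 0.135 CPM.

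Carriers of amino acids and peptides made up 27 of the 167, and 3 rose and 1 fell in CM against control. That was 14.8% of the class beside 5.61% of all genes tested. In CM plus DTM against control 7.41% of the class passed, beside 2.45%. Among genes at 5 CPM or more the shares called were 6.87% and 3.2%, which holds as background for the classes below too. Differences between any class and the background were not tested. The clearest change was that of Slc15a3, which moves histidine and small peptides out of the lysosome. Its level was 307, 219 and 232 CPM in control, 706, 859 and 914 CPM in CM, and 725, 512 and 454 CPM in CM plus DTM. All 6 libraries with conditioned medium lay above the 3 controls, and those with DTM lay mostly below those without. The log2 fold change was 1.71 (SE 0.228, adjusted p = 0.00439) in CM and 1.16 (SE 0.225, adjusted p = 0.0348) in CM plus DTM, each against control. The first passed in each of the 9 fits that left out 1 library, with an adjusted p of 0.000979 to 0.0321. The second ranged from 0.0265 to 0.164 and was lost without any 1 control library, CM 2, CM 3, CM plus DTM 1 or CM plus DTM 3. In CM plus DTM against CM the value was -0.55 (SE 0.222, adjusted p = 0.144), and without both first libraries it was -0.93 (adjusted p = 0.0358).

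Slc36a1, a proton-coupled exporter of small neutral amino acids in the lysosome, and Slc38a6, a member of the neutral amino acid transporter family of Slc38a1 and Slc38a2, also rose. Slc36a1 was at 56.8, 58.9 and 60.7 CPM in control, 85.4, 93.4 and 87.3 CPM in CM, and 76.9, 80.9 and 66.5 CPM in CM plus DTM. The control values lay close together and below the other 6, and the log2 fold change in CM against control was 0.59 (SE 0.137, adjusted p = 0.0399). It was the least firm of the rises, with an adjusted p of 0.0174 to 0.179 as each library was left out and the call kept only without CM plus DTM 1 or CM plus DTM 2. The antisense row Slc36a1os held at most 0.0814 CPM. Slc38a6 was at 8.55, 12.2 and 8.77 CPM in control, 30.9, 20.4 and 19.3 CPM in CM, and 19.7, 15.9 and 16.3 CPM in CM plus DTM. Its highest level was in CM 1 and no control library reached the others, with a log2 fold change of 1.26 (SE 0.246, adjusted p = 0.0204) and an adjusted p of 0.0115 to 0.101 over the same fits, lost without control 1, 2 or 3 or CM 2. Its level with DTM gave 0.81 (SE 0.245, adjusted p = 0.1) against control.

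Slc43a2, a facilitative carrier of methionine, leucine and other large neutral amino acids, fell. It was at 481, 367 and 365 CPM in control, 213, 142 and 134 CPM in CM, and 134, 210.1 and 162 CPM in CM plus DTM. No library with conditioned medium reached the lowest control. The log2 fold change was -1.31 (SE 0.243, adjusted p = 0.0167) in CM and -1.26 (SE 0.243, adjusted p = 0.0348) in CM plus DTM against control. In CM the call was lost without any 1 control library, CM 2 or CM 3 (adjusted p 0.0089 to 0.0781). With DTM it was lost without those or CM plus DTM 1 or 3 (adjusted p 0.0204 to 0.126).

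**Figure D3:**
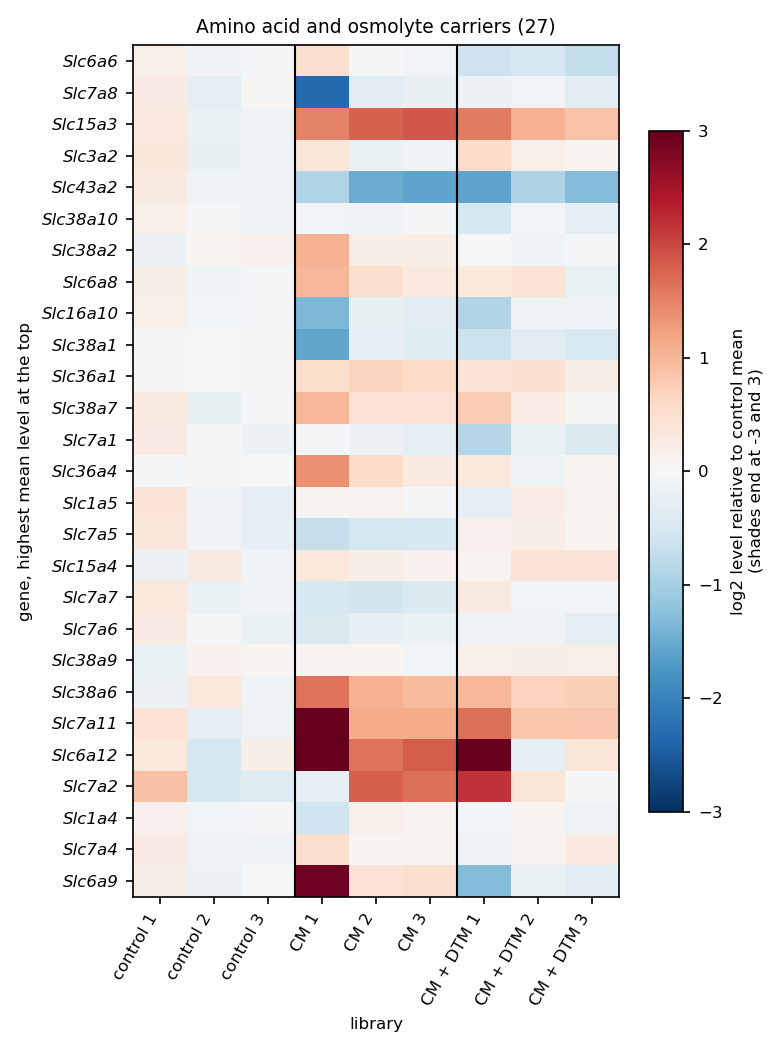
Levels of the 27 amino acid carriers (rows, the most abundant at the top) in each of the 9 libraries (columns). Shades give the log2 of CPM plus 0.5 relative to the control mean, red above and blue below, and end at -3 and 3. Slc15a3 is red in all 6 libraries with conditioned medium and Slc43a2 blue, while Slc7a11, Slc6a12 and Slc6a9 are darkest in CM 1, and Slc6a12 also in CM plus DTM 1.

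The rest of the amino acid carriers did not pass in any comparison. Slc6a6, the taurine transporter, was at 826, 683 and 718 CPM in control, 1031, 727 and 699 CPM in CM, and 484, 523 and 449.6 CPM in CM plus DTM. The 3 libraries with DTM lay below all others, and the log2 fold change in CM plus DTM against CM was -0.75 (SE 0.187, adjusted p = 0.0615). Slc7a5 and Slc7a7, light chains that pair with Slc3a2 to exchange large neutral and cationic amino acids, showed the opposite order, lower in CM than in both other groups. Slc7a5 was at 53.9, 39.6 and 35.7 CPM in control, 26.1, 29.3 and 30.3 CPM in CM, and 46.2, 49.1 and 44.2 CPM in CM plus DTM. Its log2 fold change was -0.59 (SE 0.185, adjusted p = 0.102) in CM against control and 0.70 (SE 0.186, adjusted p = 0.065) with DTM against CM. For Slc7a7 the values were -0.50 (SE 0.190, adjusted p = 0.166) and 0.53 (SE 0.190, adjusted p = 0.112). Slc3a2 itself overlapped across all groups, at 557, 378 and 413 CPM in control, 573, 388 and 410.4 CPM in CM, and 648, 489 and 462 CPM in CM plus DTM.

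Glutamine and lysosomal carriers of the class were also measured. Slc1a5, a surface exchanger of glutamine, was at 53.8, 38.3 and 34.2 CPM in control, 43.6, 44.1 and 40.5 CPM in CM, and 34.4, 48.6 and 44.6 CPM in CM plus DTM. Slc38a2, which takes up glutamine and alanine with sodium, was at 122, 143 and 149.9 CPM in control, 286, 157 and 157 CPM in CM, and 137, 125 and 131 CPM in CM plus DTM, with CM 1 far above the rest. Slc15a4, the lysosomal peptide carrier related to Slc15a3, was at 30.6, 41.8 and 32.2 CPM in control, 43.2, 39.6 and 38.1 CPM in CM, and 36.8, 45.8 and 45.6 CPM in CM plus DTM. The groups overlapped for Slc1a5 and Slc15a4, and for Slc38a2 the libraries with CM lay above all others without a call.

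Several amino acid carriers were set apart by CM 1. Slc7a11, the cystine and glutamate exchanger that supplies cysteine for glutathione, was at 4.44, 2.48 and 2.79 CPM in control, 54.5, 7.41 and 7.39 CPM in CM, and 10.9, 5.98 and 5.88 CPM in CM plus DTM. Slc6a12, which takes up betaine and GABA, was at 0.533, 0.0700 and 0.448 CPM in control, 74.4, 2.06 and 2.41 CPM in CM, and 8.54, 0.190 and 0.558 CPM in CM plus DTM. The glycine transporter Slc6a9 was at 2.55, 1.87 and 2.2 CPM in control, 19.9, 3.11 and 3.23 CPM in CM, and 0.595, 1.86 and 1.68 CPM in CM plus DTM. In these 3 genes CM 1 was far above CM 2 and CM 3, and none was called in CM against control. Their log2 fold changes were 2.84 (adjusted p = 0.0693), 6.23 (adjusted p = 0.103) and 1.99 (adjusted p = 0.16). Without both first libraries, in CM against control, Slc7a11 gave 1.23 (adjusted p = 0.0168), Slc6a12 gave 2.72 (adjusted p = 0.0317) and Slc6a9 gave 0.56 (adjusted p = 0.141). All 3 genes were under 5 CPM in control and entered the set through groups where they are high, so their difference from control is partly built into the choice. Slc7a2, an arginine carrier, had the reverse order within CM, at 9.24, 3.25 and 3.52 CPM in control, 3.91, 17.9 and 16 CPM in CM, and 23.3, 6.27 and 4.64 CPM in CM plus DTM, and without both first libraries its log2 fold change in CM against control was 1.70 (adjusted p = 0.0323). Slc7a8 was at 137, 555 and 595 CPM in CM against 834, 568 and 719 CPM in control, so that CM 3 lay within the control range, CM 2 just below it and CM 1 far below.

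Enzymes and regulators that use amino acids were examined beside their carriers. Of 27 tested of 31 listed, 4 rose and 1 fell in CM against control, with a median log2 fold change of 0.01. Over all genes tested 4.04% were called higher and 1.57% lower in CM, which is the background for the lists of related genes here and below, and 1.5% and 0.946% in CM plus DTM against control. Arg1, which splits arginine into ornithine and urea, gave 3.40 (SE 0.735, adjusted p = 0.0301), and the stress-induced factors Ddit3 and Atf5 gave 2.86 (SE 0.634, adjusted p = 0.0336) and 1.67 (SE 0.147, adjusted p = 0.000894). Atf5 passed in all 9 fits that left out 1 library, Arg1 was lost without any 1 control, CM 2 or CM 3 (adjusted p 0.00638 to 0.133), and Ddit3 without any 1 control or CM plus DTM 3 (adjusted p 0.0183 to 0.137). Without CM 1 the log2 fold change of Ddit3 was 1.68. Arg2, under 5 CPM, was the fourth to rise, and Glul, glutamine synthetase, fell (log2 fold change -0.88, SE 0.189, adjusted p = 0.0293), a call kept only without CM plus DTM 1 or 2. With DTM, only Atf5 was called against control (log2 fold change 0.67, SE 0.144, adjusted p = 0.0478), a call kept only without CM 1 or CM plus DTM 2. In the glutathione list, 3 of 11 genes fell in CM and none rose, with a median of -0.36 beside -0.01 over all genes. They were the 2 subunits of glutamate-cysteine ligase, Gclc (log2 fold change -1.07, SE 0.161, adjusted p = 0.00679) and Gclm (log2 fold change -0.82, SE 0.203, adjusted p = 0.0498), and the thioredoxin reductase Txnrd1 (log2 fold change -0.85, SE 0.160, adjusted p = 0.0177). Gclc passed in all 9 fits. Txnrd1 was lost without any 1 control, CM 2 or CM 3 (adjusted p 0.00349 to 0.0793), and Gclm was called only without CM plus DTM 1 or 3 (adjusted p 0.0206 to 0.178).

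Metal carriers numbered 25, of which 2 rose and 1 fell in CM and 1 rose in CM plus DTM, each against control. The shares were 12% in CM, beside 5.61% of all genes, and 4% in CM plus DTM, beside 2.45%. Slc31a2, a copper transporter of endosomes and lysosomes, was at 39.8, 33.8 and 32.2 CPM in control, 58.2, 87.8 and 79.7 CPM in CM, and 98.1, 56.9 and 64.5 CPM in CM plus DTM. All 6 libraries with conditioned medium lay above the controls. The log2 fold change was 1.09 (SE 0.244, adjusted p = 0.0341) in CM and 1.05 (SE 0.244, adjusted p = 0.0572) in CM plus DTM, and the first was lost without any 1 control, CM 2, CM 3 or CM plus DTM 3 (adjusted p 0.0071 to 0.144). The surface copper importer Slc31a1 showed far less difference, at 131, 125 and 123 CPM in control, 138, 139 and 131 CPM in CM, and 127, 126 and 124 CPM in CM plus DTM.

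Zinc carriers moved in both directions. Slc39a7, which releases zinc from the endoplasmic reticulum, was at 101, 92.8 and 82.3 CPM in control, 181, 136 and 146 CPM in CM, and 115, 114 and 113 CPM in CM plus DTM. The CM libraries lay above all others and the libraries with DTM between them and the controls. The log2 fold change in CM was 0.74 (SE 0.155, adjusted p = 0.0265), lost without any 1 control or CM 3 (adjusted p 0.013 to 0.138), and with DTM against CM it was -0.44 (SE 0.155, adjusted p = 0.109). Slc39a14, a surface importer of zinc, iron and manganese, was at 91, 71.5 and 58.1 CPM in control, 30.8, 40 and 38.2 CPM in CM, and 45.5, 46.1 and 39.1 CPM in CM plus DTM. Controls lay above the other 6 libraries, with -1.02 (SE 0.201, adjusted p = 0.021) in CM, lost without control 1 or 2 or any 1 CM library (adjusted p 0.0158 to 0.085), and -0.76 (SE 0.200, adjusted p = 0.0796) with DTM. The zinc exporter Slc30a4 was at 5.94, 8.42 and 9.46 CPM in control, 25.1, 16.2 and 13.5 CPM in CM, and 11.4, 6.21 and 9.86 CPM in CM plus DTM, with CM above both other groups and 1.20 (SE 0.324, adjusted p = 0.0659) against control. Slc30a1, which pumps zinc out of the cell, was at 23.9, 19.4 and 19.8 CPM in control, 37, 20.9 and 17.4 CPM in CM, and 38.4, 16.9 and 20.1 CPM in CM plus DTM. The importer Slc39a10 was at 16.9, 27.1 and 34.9 CPM in control, 63.9, 32.1 and 28.3 CPM in CM, and 27, 23.5 and 31 CPM in CM plus DTM. CM 1 was high for both and the groups overlapped.

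Slc40a1, ferroportin, the iron exporter of the cell surface, was at 108, 141 and 117 CPM in control, 91.2, 229 and 183 CPM in CM, and 414, 297 and 337 CPM in CM plus DTM. Each library with DTM lay above all others, while CM 1 lay below the controls and CM 2 and CM 3 above them. The log2 fold change was 1.51 (SE 0.309, adjusted p = 0.0406) in CM plus DTM against control and 1.06 (SE 0.305, adjusted p = 0.0727) against CM. The first was lost without any 1 control, CM 2, CM 3, CM plus DTM 1 or CM plus DTM 3 (adjusted p 0.00915 to 0.166). Without both first libraries Slc40a1 was called in CM too, with a log2 fold change of 0.78 (adjusted p = 0.0135) against control. The heme carrier Slc48a1 was at 847, 587 and 642 CPM in control, 504, 588 and 648 CPM in CM, and 754, 716 and 694 CPM in CM plus DTM. Its libraries with DTM lay above those of CM and within the control range. Slc11a1, at 633, 464 and 519 CPM in control, 516, 414 and 445 CPM in CM, and 627, 499.9 and 496 CPM in CM plus DTM, overlapped across the groups. So did Slc11a2, which imports ferrous iron, at 58.6, 41.8 and 41.9 CPM in control, 80.5, 44.9 and 45 CPM in CM, and 57.6, 48.1 and 42.2 CPM in CM plus DTM.

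**Figure D4:**
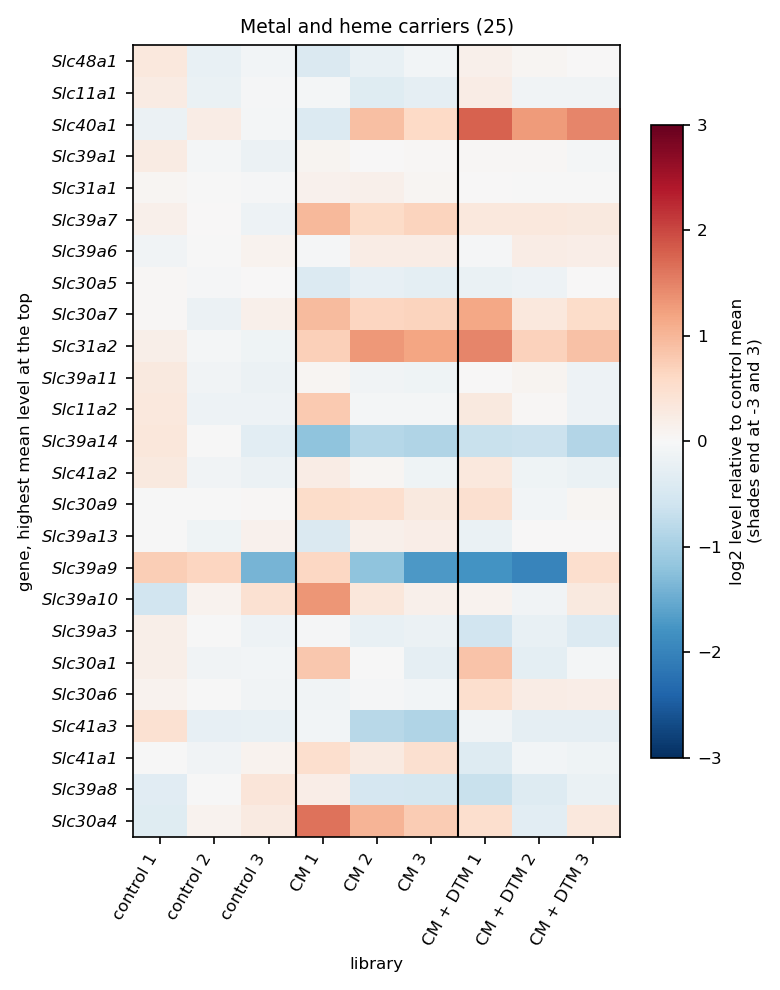
Levels of the 25 metal and heme carriers (rows, the most abundant at the top) in each of the 9 libraries (columns), as log2 of CPM plus 0.5 relative to the control mean, red above and blue below, with shades that end at -3 and 3. Slc40a1 is darkest red in the 3 libraries with DTM at 297 to 414 CPM, and Slc39a14 is blue in all 6 libraries with conditioned medium.

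Of 23 other genes of metal handling tested of 25 listed, 2 rose and 2 fell in CM, with a median of -0.06. Ncoa4, which delivers ferritin to the lysosome, rose (log2 fold change 1.73, SE 0.236, adjusted p = 0.00475) in all 9 fits that left out 1 library, and it was called with DTM as well (log2 fold change 1.14, SE 0.232, adjusted p = 0.0405), lost there without any 1 control, CM 2, CM 3 or CM plus DTM 3 (adjusted p 0.019 to 0.152). The second to rise was ceruloplasmin, Cp, whose level was under 5 CPM. Hfe and the biliverdin reductase Blvra fell, with log2 fold changes of -0.91 (adjusted p = 0.00965) and -0.85 (adjusted p = 0.0197). Hfe was lost without control 2 or CM 2 (adjusted p 0.00309 to 0.0518), and Blvra without any 1 control, CM 2 or CM 3 (adjusted p 0.00396 to 0.0899). The iron stores Fth1 and Ftl1 and the heme oxygenase Hmox1 were not called, with Fth1 at 0.83 (SE 0.328, adjusted p = 0.184) in CM and 1.06 (SE 0.329, adjusted p = 0.109) in CM plus DTM.

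No sugar carrier was called among 12, in any comparison. Slc2a1, the main glucose importer of most cells, was at 222, 145 and 141 CPM in control, 146, 209.7 and 224 CPM in CM, and 179, 176 and 166 CPM in CM plus DTM. The groups overlapped, with CM 1 near the lower controls and CM 2 and CM 3 near the highest. Slc2a3, a high-affinity glucose importer, was at 16.6, 15.6 and 12.1 CPM in control, 9.99, 13 and 10.8 CPM in CM, and 12.5, 16.5 and 13.9 CPM in CM plus DTM, with overlap too. The sugar phosphate carrier Slc37a2, the most abundant of the class before correction for length, was at 315, 274 and 174 CPM in control, 264, 168 and 155 CPM in CM, and 119.8, 260.4 and 118 CPM in CM plus DTM and varied as much within groups as between them. Slc2a6, a lysosomal hexose transporter, was at 12.7, 13.4 and 13.6 CPM in control, 127, 11.3 and 12.3 CPM in CM, and 9.71, 10.7 and 9.75 CPM in CM plus DTM, so that a single library, CM 1, stood above the other 8. Slc45a4, a proton-coupled carrier first described for sugars, was at 55.5, 37.9 and 43.1 CPM in control, 75, 47.4 and 37.2 CPM in CM, and 3.19, 20.8 and 10.7 CPM in CM plus DTM. All 3 libraries with DTM lay below the other 6, and the log2 fold change was -2.20 (SE 0.570, adjusted p = 0.0641) against CM and -1.97 (SE 0.566, adjusted p = 0.093) against control. Without both first libraries Slc45a4 was called against CM, with -1.47 (adjusted p = 0.0465), and against control, with -1.54 (adjusted p = 0.0241). Its relative Slc45a3 was at 2.25, 2.66 and 2.56 CPM in control, 1.44, 14.8 and 12.7 CPM in CM, and 4.98, 8.64 and 6.79 CPM in CM plus DTM, and without both first libraries it was called in CM, at 2.50 (adjusted p = 0.000163). Slc45a3 too was under 5 CPM in control, so this difference is partly built into the choice.

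The 5 monocarboxylate carriers gave no call and no unadjusted p under 0.05. Slc16a3, the lactate exporter of glycolytic cells, was at 238, 167 and 149 CPM in control, 138, 229 and 230.0 CPM in CM, and 158, 187 and 165 CPM in CM plus DTM. Slc16a1, which moves lactate both ways, was at 30.5, 27.6 and 24.1 CPM in control, 17.2, 31.6 and 28.4 CPM in CM, and 34.3, 32.9 and 32.6 CPM in CM plus DTM. For both, CM 1 was the lowest library, and Slc16a1 was higher in the 3 libraries with DTM than in the other 6. Slc16a6 was at 38, 35.9 and 43.5 CPM in control, 19.2, 41.8 and 37.6 CPM in CM, and 31.4, 35.8 and 31.6 CPM in CM plus DTM. The pyruvate and lactate carrier Slc16a7 was at 13.8, 15.7 and 18.2 CPM in control, 14.8, 14.5 and 13.4 CPM in CM, and 5.65, 11.1 and 16.6 CPM in CM plus DTM. The groups overlapped for Slc16a3 and Slc16a7. For Slc16a6 the libraries with DTM lay below the controls, and CM overlapped both groups. The 24 genes of glucose use and lactate, among them the enzymes Pkm and Ldha and the chaperone Bsg of these carriers, gave 0 calls in each comparison, with medians of -0.02, 0.02 and 0.01.

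Nucleoside and nucleobase carriers also gave 0 calls among 5. Slc29a3, which lets nucleosides out of the lysosome, was at 63.6, 54.6 and 65.8 CPM in control, 153, 80.9 and 80.2 CPM in CM, and 71.5, 73.4 and 63.4 CPM in CM plus DTM. All 3 CM libraries lay above the others, led by CM 1, and the log2 fold change was 0.77 (SE 0.253, adjusted p = 0.116) in CM against control. Slc29a1, the surface equilibrative carrier, was at 91.8, 75.9 and 72.6 CPM in control, 93.2, 56.8 and 56.9 CPM in CM, and 55.8, 76.6 and 84.5 CPM in CM plus DTM. The sodium-coupled Slc28a2 was at 22.4, 31.3 and 27.6 CPM in control, 29.1, 47.3 and 39.5 CPM in CM, and 25, 41.2 and 40.7 CPM in CM plus DTM. Both overlapped between the groups. Without both first libraries, in CM against control, Slc28a2 gave 0.71 (adjusted p = 0.0254) and the purine carrier Slc43a3 -0.79 (adjusted p = 0.0261). Of 19 enzymes of nucleosides, 2 rose in CM and none fell, with a median of 0.09. Samhd1, which degrades deoxynucleotides, rose in CM (log2 fold change 1.04, SE 0.154, adjusted p = 0.00654), in all 9 fits that left out 1 library. With DTM it rose too (log2 fold change 0.79, SE 0.153, adjusted p = 0.0348), a call kept only without CM 1 or CM plus DTM 2 (adjusted p 0.0252 to 0.146). The surface ATP hydrolase Entpd1 rose in CM with all libraries (log2 fold change 1.17, SE 0.290, adjusted p = 0.0498) and, of the fits that left out 1 library, only without CM plus DTM 1 (adjusted p 0.0168 to 0.191).

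Mitochondrial carriers formed the largest class with 32 genes and gave 0 calls in all 3 comparisons. The class is the whole Slc25 family, set by family and not by place in the cell. In CM plus DTM against CM, 6 of the 32 had an unadjusted p under 0.05 with a higher level and 2 with a lower one, or 25% together beside 28.3% of all genes, so the count lay near the background. Those higher included the ADP/ATP exchangers. Slc25a5 was at 553, 478 and 382 CPM in control, 325, 526 and 509 CPM in CM, and 975, 722 and 815 CPM in CM plus DTM. Its paralog Slc25a4 was at 159, 168 and 155 CPM in control, 120.4, 151 and 160.1 CPM in CM, and 192, 185 and 215 CPM in CM plus DTM. For both, the 3 libraries with DTM were above the other 6, with log2 fold changes against CM of 0.89 (SE 0.232, adjusted p = 0.0646) and 0.46 (SE 0.151, adjusted p = 0.0956). The phosphate carrier Slc25a3, which supplies the other substrate of ATP synthesis, had the same order, at 454, 369 and 336 CPM in control, 341, 393 and 378 CPM in CM, and 475, 524 and 563 CPM in CM plus DTM, with 0.49 (SE 0.161, adjusted p = 0.0944). Slc25a51, which imports NAD, was at 54.3, 66.8 and 29.1 CPM in control, 78, 84.1 and 78.4 CPM in CM, and 122, 91.2 and 114 CPM in CM plus DTM, and its log2 fold change with DTM against control was 1.12 (SE 0.275, adjusted p = 0.0666). Without both first libraries Slc25a5 was called against control, at 0.69 (adjusted p = 0.0375). The citrate carrier Slc25a1 was at 75.4, 65.4 and 86.2 CPM in control, 101, 58.8 and 61.6 CPM in CM, and 72.5, 73.4 and 73.7 CPM in CM plus DTM. The iron importer Slc25a37 was at 38.6, 42.6 and 42 CPM in control, 58.1, 43 and 40.7 CPM in CM, and 67.3, 34.3 and 35.6 CPM in CM plus DTM. Both overlapped across the groups.

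**Figure D5:**
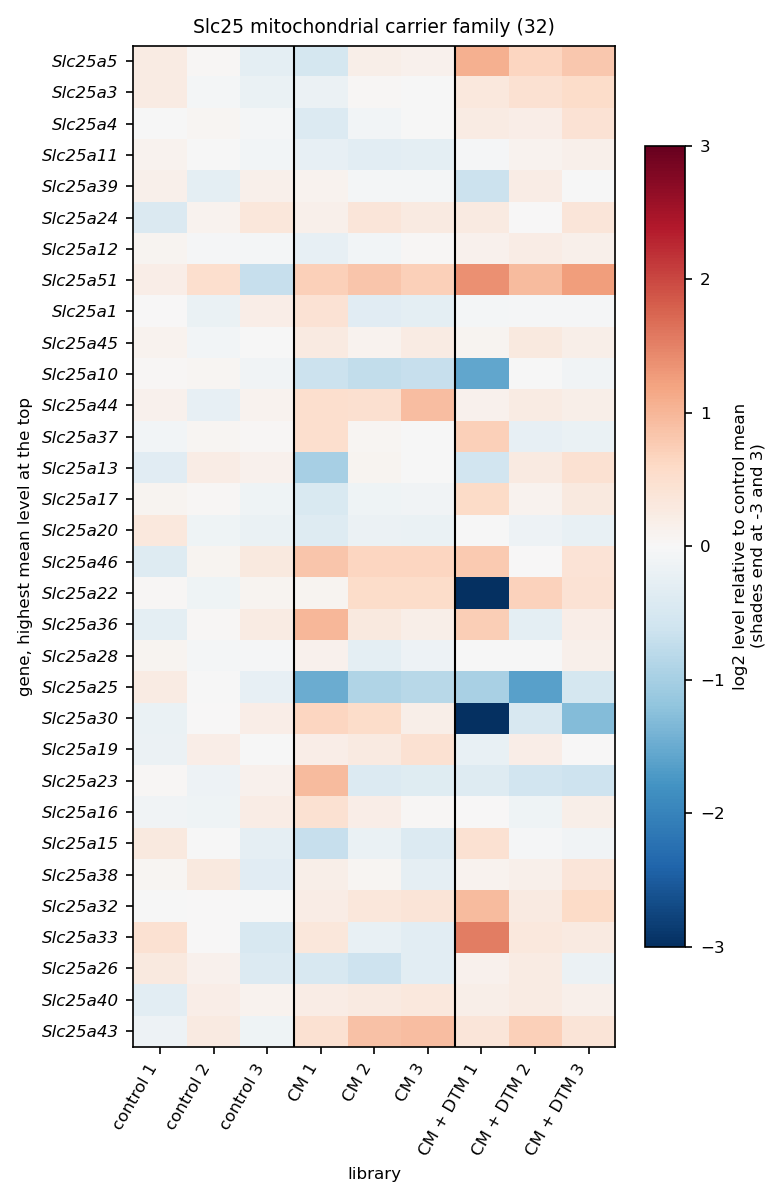
Levels of the 32 mitochondrial carriers (rows, the most abundant at the top) in each of the 9 libraries (columns), as log2 of CPM plus 0.5 relative to the control mean, red above and blue below, with shades that end at -3 and 3. Slc25a5 lies at 722 to 975 CPM in the libraries with DTM and at 325 to 553 CPM in the other 6, and Slc25a22 is at 1.65 CPM in CM plus DTM 1.

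Other mitochondrial carriers varied without passing. Slc25a25, which exchanges ATP-magnesium for phosphate, was at 30.2, 25.2 and 21.4 CPM in control, 8.69, 13.2 and 14 CPM in CM, and 12.6, 7.9 and 17.5 CPM in CM plus DTM, with -1.09 (SE 0.315, adjusted p = 0.0809) in CM. The 3 controls lay above the other 6 libraries. Slc25a30, a carrier of this family, was at 15.3, 17.8 and 20.2 CPM in control, 27.8, 25.9 and 20 CPM in CM, and 1.41, 12.4 and 6.89 CPM in CM plus DTM, with -1.82 (SE 0.591, adjusted p = 0.0921) against CM, and CM plus DTM 1 was its lowest library. Slc25a10, the dicarboxylate carrier, was at 65.8, 67 and 59.4 CPM in control, 40.4, 37.9 and 39.5 CPM in CM, and 21.4, 63.8 and 59.7 CPM in CM plus DTM. There CM plus DTM 1 parted from its group, and without both first libraries the log2 fold change was -0.69 (adjusted p = 0.0076) in CM against control and 0.62 (adjusted p = 0.0422) with DTM against CM. Slc25a22, a glutamate carrier, was at 1.65 CPM in CM plus DTM 1 and at 27.7 to 49.4 CPM in the other 8 libraries. Without both first libraries it was called higher against control in CM, at 0.60 (adjusted p = 0.0226), and in CM plus DTM, at 0.56 (adjusted p = 0.0462). Of 24 other mitochondrial genes, with a median of -0.11, 1 was called in CM. Alas1, the first enzyme of heme synthesis, rose (log2 fold change 1.23, SE 0.233, adjusted p = 0.0179), lost without any 1 control, CM 2 or CM 3 (adjusted p 0.000639 to 0.0982). The proton carrier Ucp2 missed at -1.14 (adjusted p = 0.0594) in CM and 1.22 (adjusted p = 0.0615) with DTM against CM.

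Among 20 carriers of inorganic ions, 1 fell in CM and 1 in CM plus DTM, each against control. The share was 5% in both, beside 5.61% and 2.45% of all genes. Slc9a9, the sodium-proton exchanger of endosomes, was at 108, 65.7 and 68.5 CPM in control, 39, 25.8 and 25 CPM in CM, and 47.5, 35.5 and 32 CPM in CM plus DTM. Controls lay above the other 6 libraries, and the log2 fold change in CM was -1.43 (SE 0.273, adjusted p = 0.0189), lost without control 1, CM 2 or CM 3 (adjusted p 0.0102 to 0.0826), and -1.07 (SE 0.271, adjusted p = 0.0734) with DTM. Slc8a1, the sodium-calcium exchanger of the cell surface, was at 17.3, 18.5 and 20.9 CPM in control, 8.2, 15.5 and 11.1 CPM in CM, and 3.62, 6.19 and 2.99 CPM in CM plus DTM. The order was control, CM, CM plus DTM with no overlap, and the log2 fold change with DTM was -2.15 (SE 0.335, adjusted p = 0.0195) against control and -1.44 (SE 0.329, adjusted p = 0.0611) against CM. The first was lost without any 1 control or CM plus DTM 3 (adjusted p 0.0117 to 0.0876), and the second was called without both first libraries, at -1.59 (adjusted p = 0.0434). Slc8a1 was 1 of the 11 genes that entered the set through only some of the groups, so its low level in the others is partly built into the choice. The phosphate importer Slc20a1 was at 143, 116 and 85 CPM in control, 108, 95.6 and 89.5 CPM in CM, and 176, 92.4 and 95.5 CPM in CM plus DTM. The anion exchanger Slc4a2 was at 84.4, 82.7 and 77.3 CPM in control, 73.5, 80.8 and 73.3 CPM in CM, and 44.8, 72.8 and 55.5 CPM in CM plus DTM. For Slc20a1 the groups overlapped, and for Slc4a2 the libraries with DTM were the lowest. The potassium-chloride exporters Slc12a4 and Slc12a7 were lower with DTM than with CM without passing, at -0.64 (adjusted p = 0.125) and -1.27 (adjusted p = 0.129).

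Choline, urate and the remaining classes added 2 calls. In CM against control 12.5% of the 8 vitamin and choline carriers and 16.7% of the 6 organic ion carriers passed, beside 5.61% of all genes. With DTM against control the shares were 12.5% and 0%, beside 2.45%. Slc44a1, a choline importer that feeds phosphatidylcholine synthesis, was at 63.5, 63.8 and 65.2 CPM in control, 42.1, 34.6 and 29 CPM in CM, and 39.9, 28 and 31.9 CPM in CM plus DTM. The 3 controls agreed closely and lay above all others. The log2 fold change was -0.86 (SE 0.193, adjusted p = 0.0346) in CM and -0.95 (SE 0.194, adjusted p = 0.0406) in CM plus DTM, each lost without any 1 control, CM 2, CM 3 or CM plus DTM 3 (adjusted p 0.0132 to 0.131 and 0.0225 to 0.149). Slc2a9, a urate carrier despite its place in the glucose transporter family, was at 27.1, 24.5 and 23.7 CPM in control, 15.5, 14.5 and 14.7 CPM in CM, and 16.4, 18.5 and 18.2 CPM in CM plus DTM. Its controls lay above the rest, with -0.75 (SE 0.155, adjusted p = 0.0253) in CM, lost without the same libraries (adjusted p 0.0117 to 0.107). The ascorbate importer Slc23a2 was not called, at 147, 104 and 99.9 CPM in control, 165, 185 and 159 CPM in CM, and 132, 123 and 114 CPM in CM plus DTM, where CM lay above both other groups. Slc44a2, a mitochondrial and surface choline carrier, was at 35.1, 39.2 and 45.5 CPM in control, 77.4, 50.2 and 47 CPM in CM, and 41, 29.6 and 16.2 CPM in CM plus DTM, with -1.01 (SE 0.331, adjusted p = 0.0941) with DTM against CM. The carnitine and ergothioneine carrier Slc22a4 was at 22.6, 16.3 and 17.7 CPM in control, 31.6, 22.1 and 23.1 CPM in CM, and 16.2, 26.2 and 22.8 CPM in CM plus DTM. Slc17a5, the lysosomal exporter of sialic acid, was at 26.6, 14 and 15.4 CPM in control, 28.5, 26.9 and 15.6 CPM in CM, and 25.5, 25.5 and 29.3 CPM in CM plus DTM. Both overlapped between the groups.

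The most abundant fatty acid carrier, Slc27a1, was at 239.8, 169 and 173 CPM in control, 177, 152 and 169 CPM in CM, and 202, 169 and 166 CPM in CM plus DTM. Slc27a4, of the same family, was at 68.8, 54.9 and 56 CPM in control, 66.8, 58.6 and 55.8 CPM in CM, and 35, 60.1 and 46.7 CPM in CM plus DTM. Slc10a3, of the bile acid carrier family, was at 36.7, 21.3 and 29.5 CPM in control, 27.9, 22.5 and 23.7 CPM in CM, and 35.6, 26.6 and 30.2 CPM in CM plus DTM. Each of them overlapped between the groups. Of the genes that encode no carrier, Slc9a3r1, a scaffold of membrane proteins, was at 97.1, 117 and 138 CPM in control, 168, 193 and 212 CPM in CM, and 119.8, 185 and 171 CPM in CM plus DTM, with 0.71 (SE 0.207, adjusted p = 0.0857) in CM. Slc7a6os, which overlaps Slc7a6 on the opposite strand, was at 19.7, 17.2 and 20.1 CPM in control, 13.3, 16.3 and 18.5 CPM in CM, and 16.9, 19.8 and 21.4 CPM in CM plus DTM. Slc4a1ap was at 17.5, 19.2 and 22.2 CPM in control, 22.9, 23.9 and 20.3 CPM in CM, and 14.8, 18.2 and 18 CPM in CM plus DTM. Without knowledge of strand, reads from the stretch where Slc7a6 and Slc7a6os overlap cannot be told apart.

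The 20 genes of the nucleotide sugar class gave no call. That class was set largely by family, and some of its members carry other substrates. Of the 8 carriers of vitamins and choline only Slc44a1 was called. The 4 of lipids and bile acids and the 3 genes that encode no carrier gave no call. Slc35e1, the most abundant of the nucleotide sugar class, was at 135, 126 and 132 CPM in control, 109, 100.3 and 96.5 CPM in CM, and 64.6, 105 and 87.8 CPM in CM plus DTM. Slc35b1, which carries ATP into the endoplasmic reticulum, was at 89.7, 61 and 65.1 CPM in control, 92.8, 69.6 and 80.1 CPM in CM, and 125, 90.4 and 97.3 CPM in CM plus DTM. Slc35b4 was at 89.1, 79.1 and 76.9 CPM in control, 75.2, 80.7 and 74.5 CPM in CM, and 85.1, 83.6 and 81.4 CPM in CM plus DTM. Slc35e1 was lower in both groups with conditioned medium than in control, and Slc35b4 differed little between libraries. The nearest to a call in the nucleotide sugar class were Slc35b2, which brings the sulfate donor into the Golgi, at -0.53 (adjusted p = 0.0747) in CM, and its relative Slc35b3 at 1.01 (adjusted p = 0.0881) in CM plus DTM against control.

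Carriers whose symbols are not Slc and a digit were followed too, among them those of the Slco family. Of 20 tested of 23 listed, 3 rose and 1 fell in CM against control with a median of 0.20, and none was called with DTM. Slco4a1, an organic anion carrier, rose (log2 fold change 3.55, SE 0.511, adjusted p = 0.00576) in all 9 fits that left out 1 library, with 2.69 without CM 1. The phosphate exporter Xpr1 (log2 fold change 1.31, SE 0.297, adjusted p = 0.0362) and the lysosomal cysteine importer Mfsd12 (log2 fold change 1.21, SE 0.246, adjusted p = 0.0238) rose. Xpr1 was called only without CM 3 or CM plus DTM 1 (adjusted p 0.0134 to 0.148), and Mfsd12 was lost without any 1 control (adjusted p 0.0138 to 0.0994). Slco2b1, another organic anion carrier, fell (log2 fold change -2.54, SE 0.534, adjusted p = 0.0271), lost without any 1 control or CM 3 (adjusted p 0.0211 to 0.108), with a log2 fold change of -3.21 without CM 2. Among all genes named beside the solute carriers, scaling by total counts ended the calls of Alas1, Entpd1, Mfsd12 and Xpr1 in CM, and limma-voom those of Ddit3 and Xpr1. With no filter on low counts Entpd1, Gclm and Glul were not called in CM. The calls of Atf5, Ncoa4 and Samhd1 with DTM against control were lost under total count scaling, with no filter, and in a fit of only the groups compared.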

How the data were processed

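Messenger RNA of mouse bone marrow-derived macrophages was sequenced on a DNBSEQ-T7 instrument after TRIzol extraction, per the labels' protocols. The authors deposited raw counts per gene for the 9 libraries. HISAT2 2.1.0, Trimmomatic 0.36, DESeq2 1.12.4 and FastQC 0.11.2 stand in the submitters' processing notes, as do the builds mm39 and GRCh38, none with a stated use. The counter, the annotation and the use of strand are not given in the sources used here.

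Levels are CPM scaled by TMM factors, given per library or as the mean over libraries, and membership used plain CPM. All 9 libraries entered 1 fit of edgeR 4.0.16's quasi-likelihood test (R 4.3.3) after filterByExpr, with Benjamini-Hochberg adjustment over 15429 genes and a threshold of 0.05. The fit was also run on simulated counts. These held no library apart from its group, so that run does not speak to libraries such as CM 1 or CM plus DTM 1. SE is the log2 fold change over the square root of F. Fold changes are given where the unadjusted p was under 0.05 in that comparison or for a setting that is named. Values in every library were given by a rule for the called carriers, the 3 most abundant of each class and a list of well-known carriers. Slc6a9, Slc6a12, Slc12a4, Slc12a7, Slc25a10, Slc25a22, Slc25a25, Slc25a30, Slc25a51, Slc35b2, Slc35b3, Slc39a9, Slc43a3, Slc45a3, Cp, Fth1, Ftl1, Hmox1, Bsg and Ucp2 were named after their values were seen. Exon lengths came from GENCODE vM21. The members, their classes and the lists of other genes were chosen with earlier results of these data known. Alternatives were RLE and total count scaling, other filters, DESeq2 1.42.0, limma-voom (limma 3.58.1), the replicate number as a block, only the groups compared, other limits for membership and each library left out. Library totals were 43084296 to 50407973 counts.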

Additional observations from a re-analysis of the deposited data

How the results depend on the processing

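The number of solute carriers called was 10, 0 and 5 for CM with control, for CM plus DTM with CM and for CM plus DTM with control. Over all genes 865, 0 and 378 were called. The number of solute carriers was the same with RLE scaling, limma-voom and legacy = FALSE, and 10, 0 and 6 with a filter of 1 CPM. DESeq2 called 23, 17 and 19, beside 1937, 2828 and 1981 of all genes. A fit of only the groups compared called 16, 0 and 2, beside 1360, 1 and 118. As each library was left out in turn the counts ran from 1 to 22, 0 to 6 and 0 to 15. Over all genes they ran from 256 to 1884, 0 to 1876 and 15 to 1766. Without both CM 1 and CM plus DTM 1 the counts were 31, 4 and 16, beside 2503, 776 and 1311 of all genes. With no filter on low counts they were 7, 0 and 4, beside 706, 0 and 267. Membership limits of 2 or 10 CPM gave 12 or 10, 0 and 5. Total count scaling, which moved the median log2 fold change of all genes to -0.21 with CM alone and -0.24 with DTM, each against control, gave 11 (2 higher, 9 lower) and 6 (1 higher, 5 lower). It ended the calls of Slc36a1, Slc38a6 and Slc39a7 in CM and of Slc40a1 with DTM. Over all genes its split was 415 higher and 464 lower in CM, beside 623 and 242. With DTM it was 176 and 273, beside 232 and 146. Slc2a6 in CM against control, not called at 1.92, ranged from -0.17 to 2.40 as each library was left out, with -0.17 (adjusted p = 0.661) without CM 1, and turned to -0.13 (adjusted p = 0.580) without both first libraries. No label says that library numbers pair the samples, and the deviations of same-numbered libraries correlated at -0.044 to 0.297, which leaves the pairing unsettled. Between CM and CM plus DTM each library correlated best with its own number (0.097 to 0.142), which did not hold between control and CM or between control and CM plus DTM. With the replicate number as a block the counts were 9, 0 and 2, beside 675, 0 and 149 of all genes. Of the 9 and 2, 7 and 1 were also called without the block. Slc2a9, Slc31a2 and Slc36a1 in CM and Slc15a3, Slc40a1, Slc43a2 and Slc44a1 with DTM, each against control, were not called with the block, nor were Arg1, Entpd1, Glul, Slco2b1 and Xpr1 in CM and Atf5 and Samhd1 with DTM. The causes of these shifts were not tested.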

Other observations

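Slc39a9, which encodes a zinc transporter of the Golgi, was at 59.1 to 70.2 CPM in control 1, control 2, CM 1 and CM plus DTM 3 and at 10.3 to 18.0 CPM in the other 5 libraries. The libraries of each group fell on both sides of this gap. It was the only 1 of 15429 genes tested with all of those 4 libraries at least 2 times above the other 5, and 0 genes showed the opposite. Among the 64 Slc rows tested under the limit of 5 CPM, Slc6a13, Slc18a1 and Slc39a2 were called higher in CM against control, beside 4.04% of all genes. Their log2 fold changes were 3.59 (adjusted p = 0.0474), 2.76 (adjusted p = 0.0134) and 2.56 (adjusted p = 0.0400). Slc6a13 was at 0.227 to 0.434 CPM in control and 8.33, 0.958 and 2.15 CPM in CM, so CM 1 led its rise. In CM, Slc18a1 was at 2.13 to 3.72 CPM and Slc39a2 at 1.13 to 2.15 CPM, both near the floor. In CM 1, 5 of the 167 genes (2.99%) stood more than 2 times above the next library, beside 2.28% of all genes. In CM plus DTM 1, 7 of the 167 (4.19%) stood as far below, beside 7.41% of all genes.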
